A study of Mus musculus with 6 samples.

Results

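The ubiquitin-specific proteases (USPs) were followed through fully grown mouse oocytes (FGO; fully growing oocytes in the labels) that lack or carry the RNA acetyltransferase gene Nat10. Members were all rows of the deposited table whose symbol is Usp, a number and any further letters or digits, pseudogene symbols left out. The rule took 58 of 55291 rows, of which 55 are USP genes and 3 share only the name. The 3 are Usp6nl, a gene for a GTPase-activating protein, and Usp46os1 and Usp46os2, transcripts annotated opposite Usp46. The rule used symbols only, so no measured value chose a member.

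The study has 2 groups of 3 libraries. The Nat10 cKO group came from mature female mice with a conditional Nat10 knockout driven by Gdf9-cre, and the WT group from mature females labelled wild type. The Gdf9 promoter drives Cre in oocytes, so the deletion is made in the germ cell and not in the follicle cells around it. All females of both groups received PMSG, a gonadotropin that stimulates follicle growth, and every library is a pool of 10 oocytes read by Smart-seq2, a full-length method for polyadenylated RNA. The labels give the time after PMSG as 36-48 h in one place and 32-48 h in the other, and give no strain or exact age. Nothing in the labels says that the pools of a group came from separate animals, so p-values measure only the spread between these pools.

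Ubiquitin is a small protein that is joined to other proteins to mark them for the proteasome, for sorting between membranes or for a change of activity. USPs are cysteine proteases that cut it off again, and they form the largest family of deubiquitinases in mammals. A fully grown oocyte has nearly stopped transcription and lives on stored mRNA until the embryo takes over. NAT10 places N4-acetylcytidine on RNA. The mRNA level measured here is not the acetylation of a transcript, its translation or the protease's activity.

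Nat10 itself had 5.72, 5.97 and 6.32 counts per 1000000 reads (CPM) in the Nat10 cKO pools, against 42.1, 50.1 and 39.3 CPM in the WT pools (log2 change -2.67, SE 0.129, limma adjusted p = 4.29e-08), in the direction of the labels; which exons the deletion removes is not stated in them. Depth was 47409048 to 74098613 reads in Nat10 cKO pools and 33520334 to 65451269 in WT pools, and 3 reads, the limit that a count of 0 allows, amount to 0.0401 to 0.0927 CPM per library, for counting error only. Of 12 oocyte markers, 9 rose and 2 fell (91.7%, against 35% of all tested genes; 2 and 0 by limma on the values as deposited, or 6 and 0 at an unadjusted p under 0.05, and 3 and 2 with their factors on per-read shares), and their summed level was 27906 to 33216 CPM in Nat10 cKO and 22738 to 23359 CPM in WT. The summed level of granulosa and cumulus markers was 396 to 439 CPM in Nat10 cKO and 418 to 470 CPM in WT (1 of 13 tested markers rose, 3 fell), most of it Serpine2. For theca, stroma and endothelium it was 125 to 146 CPM in Nat10 cKO and 131 to 138 CPM in WT (1 of 8 rose, 2 fell; Col3a1 at 0), and for blood and immune cells 41.2 to 44.9 CPM in Nat10 cKO and 51.4 to 55.8 CPM in WT (1 of 4 fell, none rose by limma, edgeR or DESeq2 or at an unadjusted p under 0.05). Most of the blood and immune sum was C1qb, at 32.1 CPM in Nat10 cKO and 43.9 CPM in WT. Its partner C1qa was at 0.0318 and 0.0781 CPM, and 9 of the 12 blood and immune markers averaged under 1 CPM. The part of all these markers in the results below was not tested.

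Fully grown oocytes held mRNA of most of the family, and in Nat10 cKO pools single USPs were higher or lower than in WT pools while the family's sum hardly differed. Of 58 members, 52 (51 of them USPs) had enough reads to be tested, and 22 passed: 9 were higher in Nat10 cKO (Usp8, Usp9x, Usp14, Usp17lb, Usp17lc, Usp22, Usp33, Usp37 and Usp40) and 13 were lower (Usp1, Usp2, Usp10, Usp13, Usp27x, Usp43, Usp44, Usp45, Usp46, Usp49, Usp50, Usp51 and Usp53), but on the values as deposited, which carry 1 factor per library, 3 were higher and 0 lower, and with those factors on per-read shares 2 were higher and 9 lower. Each change is read relative to the bulk of oocyte mRNA (TMM scaling), and a gene passes at a Benjamini-Hochberg adjusted p of 0.05 in limma over 18353 tested genes. The 22 make 42.3% of the tested members, against 35% of all tested genes (17.4% higher, 17.6% lower), so the family's share lies near the background. Changes were mostly small: the median size among called members was 0.528 on the log2 scale, against 0.556 among all called genes, and on this log2(CPM + 1) scale, which understates scarce genes such as Usp17lb and Usp17lc, only Usp13 passed 2-fold. The pools of the genotypes did not overlap for 26 members (50%), against 48.3% of all tested genes. Of 40 members at 10 CPM or more on average 6 rose and 9 fell (37.5%, near the 35% of all tested genes). Of 12 tested members under 10 CPM 3 rose and 4 fell, a larger share (58.3%). The share of all genes called at each of these levels was not computed.

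Counts of calls depended on which library was dropped. Dropping Nat10 cKO replicate 1 gave 3 higher and 7 lower members (2259 and 2220 among all tested genes). Dropping Nat10 cKO replicate 2 gave 4 and 5 (2252 and 2213), and dropping WT replicate 3 gave 4 and 8 (2107 and 2201). For WT replicate 1 the counts were 7 and 9 (2427 and 2594). For Nat10 cKO replicate 3 they were 11 and 12 (3308 and 3334), and for WT replicate 2 they were 12 and 10 (3431 and 3252). All libraries together gave 9 and 13 (3190 and 3232). Counts over all tested genes moved as well, so these shifts are not read as special to the family. The call held without any 1 library for 7 members: Usp8 and Usp14 (higher) and Usp13, Usp27x, Usp45, Usp46 and Usp53 (lower). Because each library is a pool, a level that is lower in every oocyte and a level that is lower in some of them cannot be told apart.

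**Figure D1:**
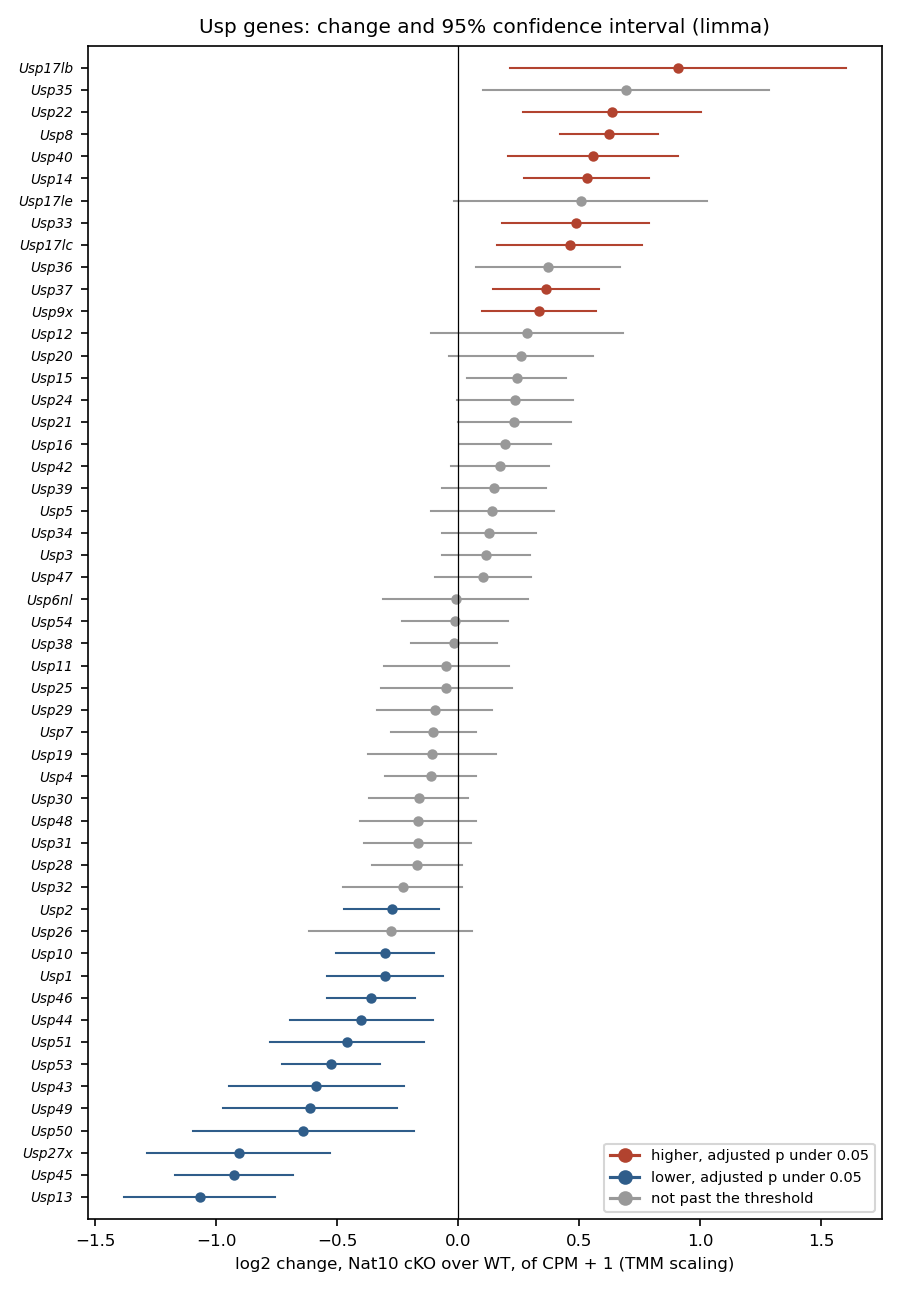
Log2 change (Nat10 cKO over WT, TMM scaling, on the log2(CPM + 1) scale) of the 52 tested members, ordered by value; points are limma estimates, bars are 95% confidence intervals, and colour marks members that passed as higher or lower. The 9 higher members end at Usp17lb, whose interval is the widest of them, and the 13 lower members end at Usp13.

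As a sum, the members took up a similar share of oocyte mRNA in both genotypes, with a difference smaller than the spread between pools. Their summed level was 5371, 5314 and 5317 CPM in the Nat10 cKO pools, against 5504, 5227 and 5340.5 CPM in the WT pools. The pools overlapped, and the means were 5334 ± 32.3 CPM in Nat10 cKO and 5357 ± 139 CPM in WT (SD, n = 3 each; log2 ratio -0.0063, exact two-sided permutation p = 0.8 over 20 assignments, of which 0.1 is the smallest possible). Usp46, Usp15 and Usp9x made up 30.1% of this sum, and 8 members 56.3% of it.

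Levels of different members are compared only per kilobase of annotated exon (CPM per kb), since long transcripts give more fragments. On that scale Usp46 was the highest member, at 78.3 in Nat10 cKO and 101 in WT. Next came Usp28 (48.7 in Nat10 cKO and 54.99 in WT), Usp7 (48.4 in Nat10 cKO and 51.98 in WT), Usp19 (37.96 in Nat10 cKO and 40.8 in WT), Usp2 (31.3 in Nat10 cKO and 37.8 in WT), Usp38 (32.5 in Nat10 cKO and 32.9 in WT), Usp1 (29.1 in Nat10 cKO and 35.8 in WT) and Usp9x (32.8 in Nat10 cKO and 26.1 in WT). Usp46 stood clear of the next member in every pool. From Usp28 down to Usp9x, the ranges of adjacent members over the 6 pools overlapped, while Usp28 and Usp7 lay above Usp2, Usp38, Usp1 and Usp9x in every pool.

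**Figure D2:**
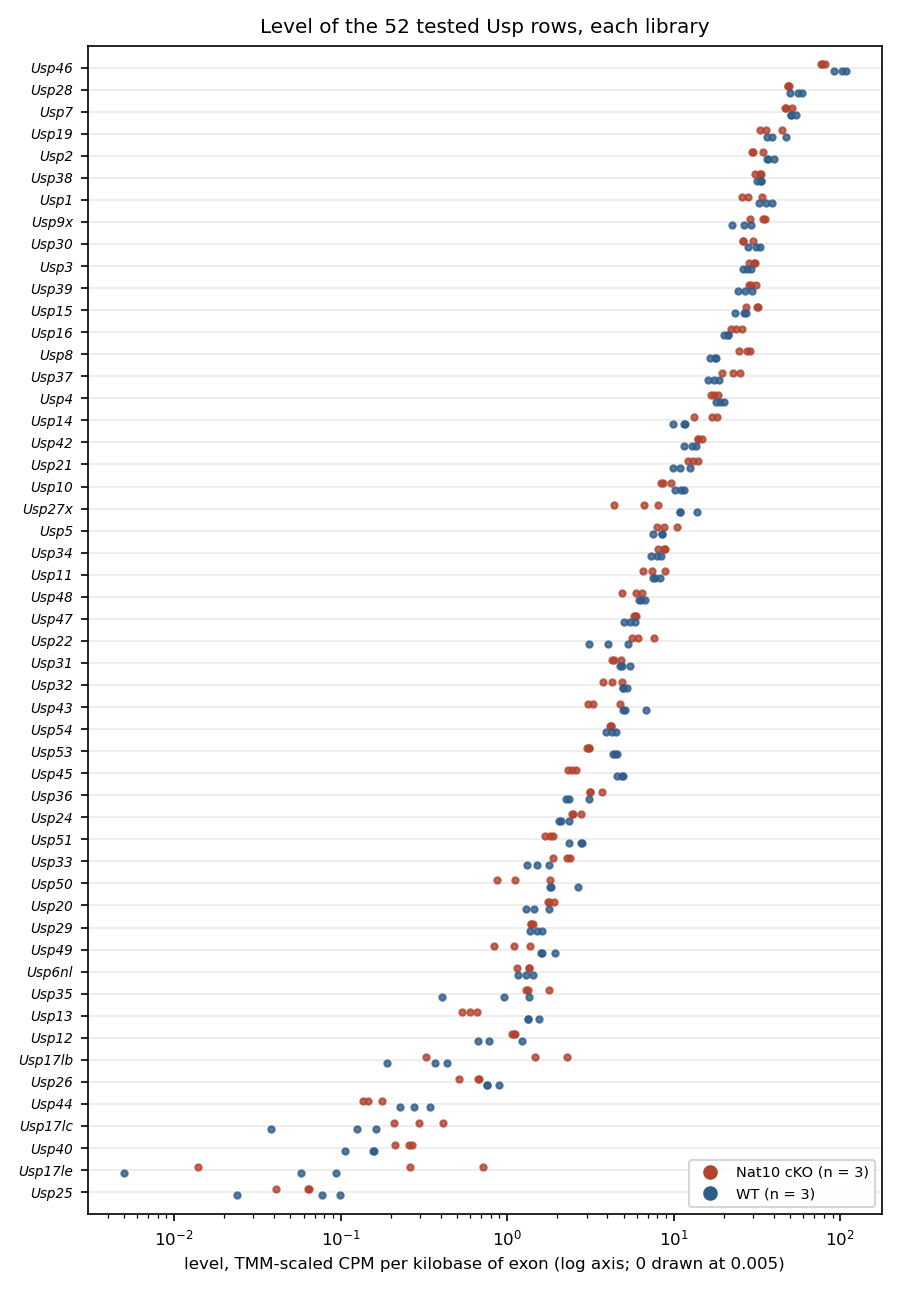
Level per kilobase of exon (CPM per kb, log axis) of the 52 tested members in each pool, Nat10 cKO above WT within each row, in order of their mean; a value of 0 is drawn at 0.005. Usp46 is the highest at 78.3 in Nat10 cKO and 100.7 in WT, and the next members follow without gaps.

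Ubiquitin recycling and the proteasome are served by Usp5, Usp13 and Usp14. Of these 3 members 1 rose and 1 fell (66.7% called, against 35% of all tested genes), too few to set the class apart. USP5 takes apart free ubiquitin chains, and USP13 is its closest relative. Usp13 (chr3:32817546-32938071, plus strand; positions are GRCm38 from GENCODE M21) was the largest fall of the family, with 5.03, 4.10 and 4.58 CPM in the Nat10 cKO pools, against 11.8, 10.1 and 10.1 CPM in the WT pools. Every Nat10 cKO pool lay below every WT pool, below the WT mean by more than 2-fold (log2 change -1.07, SE 0.145, limma adjusted p = 0.000199). Usp5 did not pass, at 41.8 ± 5.92 CPM in Nat10 cKO and 37.6 ± 2.66 CPM in WT (SD, n = 3 each; log2 change 0.14, 95% confidence interval -0.11 to 0.40). Usp14, whose product sits on the proteasome and trims ubiquitin from arriving substrates, had 141, 153 and 110.1 CPM in the Nat10 cKO pools, against 97.6, 82.7 and 96.3 CPM in the WT pools. All 3 Nat10 cKO pools were higher than all WT pools (log2 change 0.53, SE 0.120, limma adjusted p = 0.00437). Exons of Usp14 overlap those of the opposite-strand gene Thoc1 over 2169 bases, and the sources do not say whether counting used strand, so the reads of overlapping genes may be mixed here and wherever such an overlap is named.

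Within a library, the ratio of a pair of members does not depend on any scaling. The ratio of Usp5 to Usp13, per kb, was 13.2, 14.8 and 17.4 in the Nat10 cKO pools, against 5.43, 6.39 and 5.63 in the WT pools. All Nat10 cKO ratios were above all WT ratios, by 2.59-fold on average, at the smallest p that 3 against 3 allows (exact permutation p = 0.1, 0.225 after Benjamini-Hochberg adjustment over 9 pairs compared). Usp13 separated widely while Usp5 overlapped between genotypes, so this separation was fixed by their single levels and adds no support.

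Among the 10 USPs that act on histones and chromatin, 1 rose, 4 fell and 5 did not pass. The called share was 50%, against 35% of all tested genes. USP22 is the ubiquitin protease of the SAGA coactivator complex, where it removes ubiquitin from histone H2B; USP27X and USP51 are its close relatives and use the same partner proteins ATXN7L3 and ENY2. Usp22 (chr11:61151785-61175055, minus strand) had 29.9, 37.4 and 27.5 CPM in the Nat10 cKO pools, against 15.2, 25.95 and 19.7 CPM in the WT pools. The Nat10 cKO pools were higher without overlap, although the highest WT pool came close to the lowest Nat10 cKO pool (log2 change 0.63, SE 0.171, limma adjusted p = 0.0116). Usp27x (chrX:7371276-7375830, minus strand) went the other way, with 28.5, 18.8 and 34.2 CPM in the Nat10 cKO pools, against 46.8, 46.5 and 58.7 CPM in the WT pools. The Nat10 cKO pools were lower and varied more among themselves (log2 change -0.91, SE 0.176, limma adjusted p = 0.00173). Usp51 (chrX:153006469-153009416, plus strand) was scarcer, at 3.996, 3.70 and 4.15 CPM in the Nat10 cKO pools, against 5.19, 6.17 and 6.09 CPM in the WT pools. Its pools did not overlap either (log2 change -0.46, SE 0.148, limma adjusted p = 0.0271). The Usp22 call was lost without WT replicate 1 (limma adjusted p = 0.0521), and the Usp51 call without Nat10 cKO replicate 1 or 2 or WT replicate 2 or 3 (limma adjusted p = 0.0613 to 0.106).

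The opposite moves of Usp22 and its relatives show in their ratios within each library. Usp22 to Usp27x, per kb, was 0.917, 1.74 and 0.704 in the Nat10 cKO pools, against 0.284, 0.488 and 0.293 in the WT pools, and Usp22 to Usp51 was 3.37, 4.56 and 2.99 in the Nat10 cKO pools, against 1.32, 1.90 and 1.46 in the WT pools. Nat10 cKO ratios were above WT ratios in both pairs without overlap, by 3.02-fold and 2.33-fold (exact permutation p = 0.1 each, 0.225 after adjustment over the 9 pairs). Since Usp22 was higher and Usp27x and Usp51 lower without overlap, this separation was fixed by their single levels and adds no support. In WT pools Usp27x was the more abundant of the first pair, and in the Nat10 cKO pools the ratio came near to or above 1 in 2 of 3 pools. The ratio of Usp27x to Usp51 overlapped between genotypes (exact permutation p = 0.2).

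**Figure D3:**
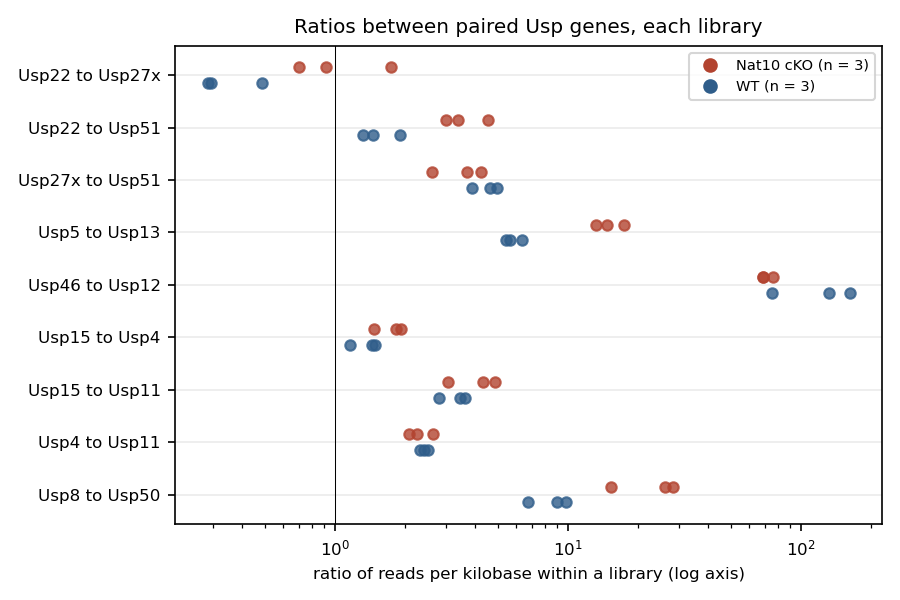
Ratio of level per kb within each library for the 9 pairs of related members compared (log axis), Nat10 cKO above WT within each row; each point is a pool. In 4 pairs, Usp22 to Usp27x, Usp22 to Usp51, Usp5 to Usp13 and Usp8 to Usp50, all Nat10 cKO pools lie above all WT pools. In all 4 the outcome was fixed by the single levels of the genes. For Usp5 to Usp13 this came from the wide separation of Usp13, and for the others from levels that separated in opposite directions.

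Usp49 and Usp44, other proteases reported to act on ubiquitinated H2B, were lower in Nat10 cKO as well. Usp49 (chr17:47630690-47686738, plus strand) had 9.42, 7.14 and 11.7 CPM in the Nat10 cKO pools, against 13.8, 16.7 and 13.7 CPM in the WT pools. The pools did not overlap (log2 change -0.61, SE 0.167, limma adjusted p = 0.0124), and the call was lost without Nat10 cKO replicate 2 (limma adjusted p = 0.0549). Of the 8581 exon bases of Usp49, 4392 are shared with Gm20517 on its own strand and 93 with the opposite-strand gene Tomm6. Its reads may thus be split between them. Usp44, known also for holding back anaphase, had few reads, 44, 34 and 40 reads in the Nat10 cKO pools and 36, 32 and 90 reads in the WT pools, or 0.588, 0.714 and 0.553 CPM in the Nat10 cKO pools, against 1.11, 0.919 and 1.40 CPM in the WT pools. In CPM the pools did not overlap (log2 change -0.40, SE 0.137, limma adjusted p = 0.0367). Its call was lost in DESeq2 (adjusted p = 0.0629) and without Nat10 cKO replicate 1, 2 or 3 or WT replicate 1 or 3 (limma adjusted p = 0.0648 to 0.148).

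The abundant chromatin members did not pass. Usp7, known for stabilising MDM2 and p53, had 376 ± 18.9 CPM in Nat10 cKO and 404 ± 17.4 CPM in WT (SD, n = 3 each; log2 change -0.10, 95% confidence interval -0.28 to 0.072). Usp3 and Usp16, which remove ubiquitin from histone H2A, had log2 changes of 0.11 (95% confidence interval -0.066 to 0.30) and 0.20 (0.0079 to 0.38). The interval of Usp16 leaves out 0, but it missed the threshold after adjustment over all genes (limma adjusted p = 0.0979). Usp21, also an H2A protease, had a log2 change of 0.23 (95% confidence interval -0.00048 to 0.46), and Usp42 had a log2 change of 0.17 (95% confidence interval -0.029 to 0.38). Without WT replicate 2 Usp21 passed (log2 change 0.33, limma adjusted p = 0.0248).

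Of 8 members with roles in DNA repair and the cell cycle, 1 rose, 2 fell and 5 did not pass. The called share was 37.5%, against 35% of all tested genes. Usp46 (chr5:73998453-74068431, minus strand), the family's most abundant transcript, had 639, 606 and 597 CPM in the Nat10 cKO pools, against 848, 722 and 798 CPM in the WT pools. All Nat10 cKO pools were lower than all WT pools (log2 change -0.36, SE 0.0846, limma adjusted p = 0.00557), but on the deposited scaling the change was 0.0011, which is -0.24 relative to the median gene. Its annotated opposite-strand transcripts Usp46os1 and Usp46os2 were at 0 or at most 0.0553 CPM. USP46 and USP12 are close relatives that need the partner WDR48. Usp12, a scarce transcript at 5.10 ± 0.127 CPM in Nat10 cKO and 4.12 ± 1.38 CPM in WT (SD, n = 3 each), did not pass (log2 change 0.28, 95% confidence interval -0.11 to 0.68), and the ratio of Usp46 to Usp12 overlapped between genotypes. Usp1, which with WDR48 removes ubiquitin from FANCD2 and PCNA after DNA damage, was at 104, 95.6 and 126 CPM in the Nat10 cKO pools, against 145, 122 and 135 CPM in the WT pools. Its pools overlapped (log2 change -0.30, SE 0.111, limma adjusted p = 0.0488), and it was the called member nearest the threshold. Usp1 was called neither by edgeR (adjusted p = 0.0534) nor by DESeq2 (adjusted p = 0.0559), nor by limma without Nat10 cKO replicate 1 or 2 or WT replicate 1 or 3 (limma adjusted p = 0.139 to 0.1998). Its change on the deposited scaling was 0.056, or -0.19 relative to the median gene.

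Usp37, known for stabilising cyclin A, had 253, 278 and 217 CPM in the Nat10 cKO pools, against 194, 179 and 206 CPM in the WT pools. The Nat10 cKO pools were higher, with a narrow gap to the highest WT pool (log2 change 0.36, SE 0.102, limma adjusted p = 0.0145). Exons of Usp37 (chr1:74435511-74544284, minus strand) overlap the opposite-strand genes Cnot9 and Vil1, and the call was lost without Nat10 cKO replicate 1 or 2 (limma adjusted p = 0.0547 to 0.0637). Usp28, which protects MYC from degradation, did not pass at 284 ± 3.50 CPM in Nat10 cKO and 321 ± 25.7 CPM in WT (SD, n = 3 each; log2 change -0.17, 95% confidence interval -0.35 to 0.014), although its pools did not overlap; without WT replicate 2 it passed (log2 change -0.22, limma adjusted p = 0.0397). Usp47, linked to base excision repair, had a log2 change of 0.10 (95% confidence interval -0.096 to 0.30), and Usp48 had a log2 change of -0.17 (95% confidence interval -0.41 to 0.074).

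The 7 members that work at endosomes, mitochondria and other membranes held 3 rises and 4 members that did not pass. None fell, also at an unadjusted p under 0.05 in limma and by edgeR and DESeq2. The called share was 42.9%, against 35% of all tested genes (17.4% higher, 17.6% lower), and 7 members are too few to set the class apart. Usp8 (chr2:126707328-126759297, plus strand), which removes ubiquitin from receptors and sorting proteins at the endosome, was the firmest rise, with 115, 121 and 103 CPM in the Nat10 cKO pools, against 74.5, 69.6 and 75.2 CPM in the WT pools. All Nat10 cKO pools lay well above all WT pools (log2 change 0.62, SE 0.0940, limma adjusted p = 0.000364). Usp33 (chr3:152346478-152393617, plus strand), which acts on receptors in membrane traffic, had 22.1, 23.05 and 18.3 CPM in the Nat10 cKO pools, against 17.3, 12.8 and 14.6 CPM in the WT pools. The pools did not overlap (log2 change 0.49, SE 0.141, limma adjusted p = 0.0171). Usp33 exons overlap 3 unnamed opposite-strand gene models over 2362 bases, and the call was lost without Nat10 cKO replicate 1 or 2 or WT replicate 3 (limma adjusted p = 0.0601 to 0.0716). Usp9x (chrX:13071498-13173328, plus strand), an X-linked protease with roles in endocytosis and cell polarity and known from fly as fat facets, averaged 494 ± 55.02 CPM in Nat10 cKO and 392 ± 51.1 CPM in WT (SD, n = 3 each; log2 change 0.33, SE 0.110, limma adjusted p = 0.0310). One Nat10 cKO pool, replicate 3, lay within the WT range, and the call was lost without Nat10 cKO replicate 1 or 2 or WT replicate 2 or 3 (limma adjusted p = 0.0727 to 0.107).

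The other members of this class did not pass. Usp19, anchored in the endoplasmic reticulum, had 268 ± 43.99 CPM in Nat10 cKO and 288 ± 40.5 CPM in WT (SD, n = 3 each; log2 change -0.11, 95% confidence interval -0.37 to 0.16). Usp30, which opposes mitophagy at the mitochondrial outer membrane, had 166 ± 13.8 CPM in Nat10 cKO and 186 ± 14.7 CPM in WT (SD, n = 3 each; log2 change -0.16, 95% confidence interval -0.37 to 0.041). Usp20, a relative of Usp33, had a log2 change of 0.26 (95% confidence interval -0.036 to 0.56), and Usp32 had a log2 change of -0.23 (95% confidence interval -0.48 to 0.017); Usp20 passed without WT replicate 2 (log2 change 0.39, limma adjusted p = 0.0353) and Usp32 without Nat10 cKO replicate 3 (log2 change -0.32, limma adjusted p = 0.0393).

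Usp50 lies at the Usp8 locus. It starts 76142 bases away from Usp8 on the opposite strand, its span overlaps the Usp8 span by 50202 bases, and no exon is shared. Usp50 (chr2:126709096-126783470, minus strand) had 5.59, 3.45 and 2.71 CPM in the Nat10 cKO pools, against 5.62, 5.71 and 8.25 CPM in the WT pools. All but 1 of the Nat10 cKO pools were clearly below the WT pools, and the highest Nat10 cKO pool lay just under the lowest WT pool (log2 change -0.64, SE 0.212, limma adjusted p = 0.0315). The ratio of Usp8 to Usp50, a pair chosen after values were seen, was 15.3, 26.02 and 28.2 in the Nat10 cKO pools, against 9.81, 9.02 and 6.75 in the WT pools, 2.66-fold higher in Nat10 cKO without overlap (exact permutation p = 0.1, 0.225 after adjustment over the 9 pairs). Usp8 was higher and Usp50 lower without overlap, so this separation too was fixed by their single levels. The Usp50 call was lost without Nat10 cKO replicate 2 or 3 or WT replicate 3 (limma adjusted p = 0.0864 to 0.162). Usp50 shares 204 exon bases with Gm10774 on its own strand.

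Among 5 members tied to RNA, splicing and the nucleolus, only Usp10 passed (20%, against 35% of all tested genes). Usp10, which binds the stress granule protein G3BP, shares 99 exon bases with Gm20388 on its own strand. It was lower at 80.03, 82.1 and 91.9 CPM in the Nat10 cKO pools, against 107, 110.2 and 97.2 CPM in the WT pools. The pools did not overlap (log2 change -0.30, SE 0.0949, limma adjusted p = 0.0247), but the change was 0.055 on the deposited scaling, or -0.19 relative to the median gene, and the call was lost without Nat10 cKO replicate 1 or 2 or WT replicate 1 or 2 (limma adjusted p = 0.0630 to 0.140). Usp15 had 504 ± 46.1 CPM in Nat10 cKO and 426 ± 35.5 CPM in WT (SD, n = 3 each) and missed the threshold (log2 change 0.24, SE 0.0950, limma adjusted p = 0.0629); without Nat10 cKO replicate 3 it passed (log2 change 0.32, limma adjusted p = 0.0149). Usp36, a nucleolar protease, was the member nearest the threshold from outside, with 25.7 ± 2.54 CPM in Nat10 cKO and 19.8 ± 3.58 CPM in WT (SD, n = 3 each; log2 change 0.37, SE 0.138, limma adjusted p = 0.0517) and no overlap; it passed in DESeq2 (adjusted p = 0.0311) and without WT replicate 2 (log2 change 0.52, limma adjusted p = 0.00721). Usp4, a relative of Usp15 with a role in splicing, had a log2 change of -0.11 (95% confidence interval -0.30 to 0.072), and Usp39, a spliceosome protein of the family without protease activity, had a log2 change of 0.15 (95% confidence interval -0.067 to 0.36). Ratios among the relatives Usp15, Usp4 and Usp11 overlapped between genotypes (exact permutation p = 0.2 to 0.6).

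Of 6 members with roles in signalling and innate immunity, 5 were tested, and only Usp2 passed (20%, against 35% of all tested genes). Usp2, a protease with a part in the circadian clock, was lower at 143, 143 and 166 CPM in the Nat10 cKO pools, against 176, 193 and 177 CPM in the WT pools. The pools did not overlap (log2 change -0.27, SE 0.0914, limma adjusted p = 0.0325), but the change was 0.085 on the deposited scaling, or -0.16 relative to the median gene, and the call was lost with library sizes only (limma adjusted p = 0.0621) and without Nat10 cKO replicate 1 or 2 or WT replicate 1, 2 or 3 (limma adjusted p = 0.0574 to 0.169). Usp2 shares 400 exon bases with unnamed opposite-strand gene models. Usp34, which acts on axin in Wnt signalling, had a log2 change of 0.13 (95% confidence interval -0.065 to 0.32), and 2137 of its exon bases overlap the opposite-strand gene Ahsa2. Usp38, a regulator of interferon induction, was nearly level between genotypes at 186 ± 7.85 CPM in Nat10 cKO and 189 ± 5.95 CPM in WT (SD, n = 3 each; log2 change -0.018, 95% confidence interval -0.20 to 0.16). Usp18, which removes the ubiquitin-like protein ISG15 and is induced by interferon, was not tested, with at most 0.124 CPM in a pool.

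Of the 8 other USPs, with Usp50 among them, 1 rose, 4 fell and 3 did not pass. The called share was 62.5%, against 35% of all tested genes, and 8 members are too few to set the class apart. Usp45 and Usp53 were the firm falls. Usp45 (chr4:21767156-21837872, plus strand), reported to act on the DNA repair nuclease subunit ERCC1, had 15.3, 14.5 and 16.1 CPM in the Nat10 cKO pools, against 28.3, 30.4 and 31.05 CPM in the WT pools. Every Nat10 cKO pool lay far below every WT pool (log2 change -0.92, SE 0.113, limma adjusted p = 0.00011). Exons of Usp45 overlap the opposite-strand gene Tstd3 over 57 bases. Usp53 (chr3:122931493-122984510, minus strand), found at tight junctions, had 37.97, 38.8 and 39.2 CPM in the Nat10 cKO pools, against 57.6, 55.98 and 54.5 CPM in the WT pools. The pools of each genotype were close together and far from the other genotype (log2 change -0.52, SE 0.0939, limma adjusted p = 0.00108). Usp43 (chr11:67854523-67922153, minus strand) had 15.6, 14.5 and 22.5 CPM in the Nat10 cKO pools, against 24.2, 32.2 and 23.4 CPM in the WT pools. The highest Nat10 cKO pool came just under the lowest WT pool (log2 change -0.59, SE 0.167, limma adjusted p = 0.0157); exons overlap 9130017K11Rik on the opposite strand, and the call was lost without Nat10 cKO replicate 1 or 2 or WT replicate 2 (limma adjusted p = 0.0611 to 0.0716). Usp40 (chr1:87945119-88008551, minus strand) was the single rise of the class, at 3.18, 2.52 and 3.04 CPM in the Nat10 cKO pools, against 1.85, 1.89 and 1.26 CPM in the WT pools. Its pools did not overlap (log2 change 0.56, SE 0.163, limma adjusted p = 0.0176); 62 exon bases are shared with the opposite-strand gene Dgkd, and the call was lost without Nat10 cKO replicate 1 or WT replicate 3 (limma adjusted p = 0.0776 to 0.0975). Usp6nl, Usp11, Usp24, Usp25, Usp31 and Usp54, tested members of several classes, did not pass, with log2 changes between -0.17 and 0.24. Usp35 had the largest log2 change among members that did not pass, 0.69 (SE 0.274, limma adjusted p = 0.0662). It passed without WT replicate 2 (log2 change 1.00, limma adjusted p = 0.00857) and with the replicate number as a block (limma adjusted p = 0.0161).

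Of 8 sex-linked, testis and rodent-expanded members, 5 were tested and 2 rose (40% called, against 35% of all tested genes). The Usp17 copies are a multi-copy rodent family first known as cytokine-induced genes of lymphocytes. Usp17lb (chr7:104840257-104842603, minus strand) had 172, 169 and 37 reads in the Nat10 cKO pools, against 22, 20 and 19 reads in the WT pools, or 2.30, 3.55 and 0.512 CPM in the Nat10 cKO pools, against 0.680, 0.574 and 0.295 CPM in the WT pools. Replicate 3 of Nat10 cKO lay inside the WT range, so the genotypes overlapped (log2 change 0.91, SE 0.316, limma adjusted p = 0.0438). Usp17lc (chr7:103415072-103419880, plus strand) had 54, 48 and 37 reads in the Nat10 cKO pools, against 10, 14 and 6 reads in the WT pools, or 0.722, 1.01 and 0.512 CPM in the Nat10 cKO pools, against 0.309, 0.402 and 0.0932 CPM in the WT pools, without overlap (log2 change 0.46, SE 0.140, limma adjusted p = 0.0209). The Usp17lb call was lost without Nat10 cKO replicate 1 or 2 or WT replicate 1, 2 or 3 (limma adjusted p = 0.0858 to 0.170), and the Usp17lc call without Nat10 cKO replicate 1 or 2 or WT replicate 3 (limma adjusted p = 0.0536 to 0.117). Usp17le did not pass (log2 change 0.51, SE 0.238, limma adjusted p = 0.122), with 39, 68 and 2 reads in the Nat10 cKO pools, against 0, 4 and 12 reads in the WT pools; it passed in DESeq2 (adjusted p = 0.0338) and without Nat10 cKO replicate 3 (log2 change 0.81, limma adjusted p = 0.00213). These copies are near-identical, and how reads shared between them were counted is not given, so the values of single copies are uncertain. Usp17la was not tested, with at most 0.168 CPM, and Usp17ld and the Y-linked Usp9y had 0 reads in all 6 pools. Usp26 and Usp29, genes known from the male germ line and from an imprinted region, were detected and did not pass (log2 change -0.28, 95% confidence interval -0.62 to 0.058, and log2 change -0.096, 95% confidence interval -0.33 to 0.14).

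**Figure D4:**
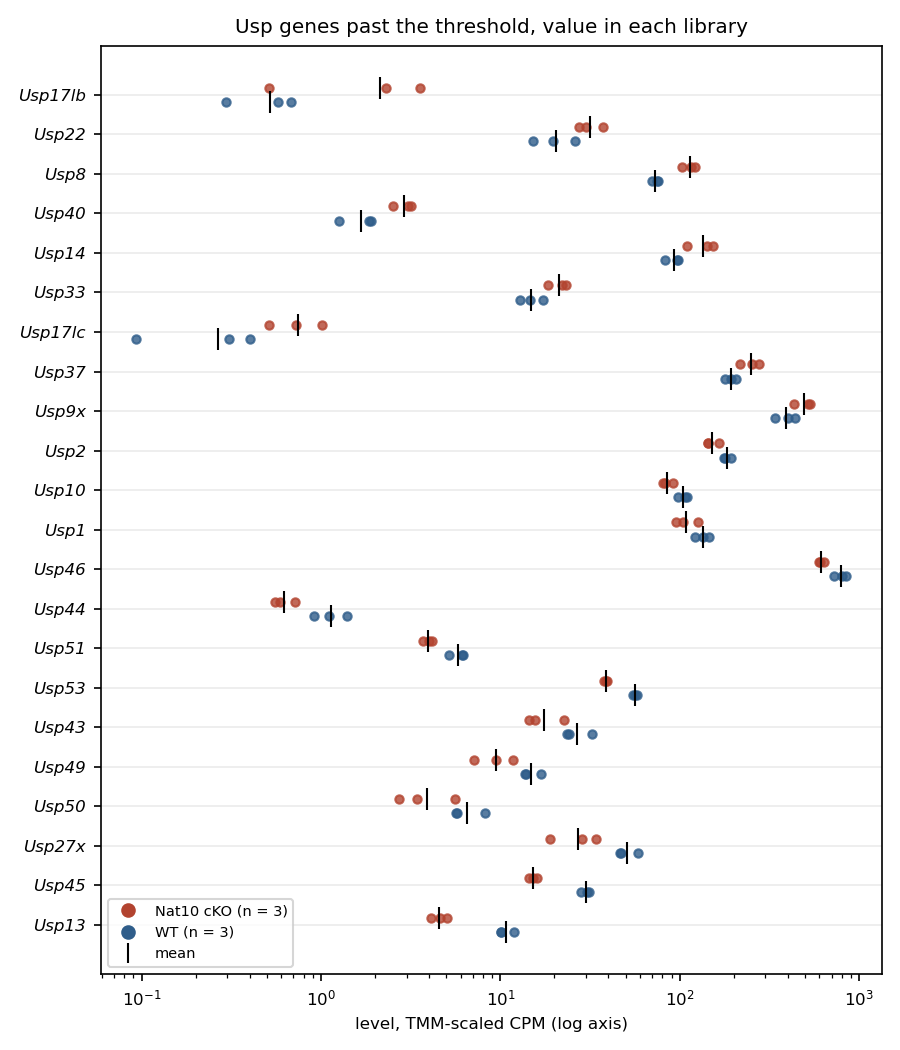
Level (CPM, TMM scaling, log axis) in each of the 6 pools for the 22 members that passed, Nat10 cKO above WT within each row; points are pools and vertical ticks are means. Usp13, Usp45 and Usp53 show wide gaps below WT and Usp8 above it, while the pools of Usp17lb overlap.

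Bases upstream of the start are shown for 4 of the members whose call held without any 1 library, so that the promoters of Usp8, which was higher, and of Usp13, Usp27x and Usp46, which were lower, can be read side by side. They are the RefSeq window (GRCm38.p6) of 250 bases, ended before the first base of any GENCODE M21 transcript of the gene: chr2:126707078-126707327 (plus strand) for Usp8, chr3:32817376-32817545 (plus strand) for Usp13, chrX:7375831-7376080 (minus strand) for Usp27x and chr5:74068432-74068661 (minus strand) for Usp46. Capitals mark matches, on either strand, to the letters GGGCGG (the GC box), CCAAT (the CCAAT box), TGACG (the core of a cAMP response element), CACGTG (an E-box) and TATAAA; matches may overlap.
Usp8: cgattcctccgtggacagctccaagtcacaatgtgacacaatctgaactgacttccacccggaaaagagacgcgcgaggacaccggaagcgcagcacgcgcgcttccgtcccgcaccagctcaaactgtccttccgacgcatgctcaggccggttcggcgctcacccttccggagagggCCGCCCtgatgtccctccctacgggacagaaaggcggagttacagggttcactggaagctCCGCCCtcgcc
Usp13: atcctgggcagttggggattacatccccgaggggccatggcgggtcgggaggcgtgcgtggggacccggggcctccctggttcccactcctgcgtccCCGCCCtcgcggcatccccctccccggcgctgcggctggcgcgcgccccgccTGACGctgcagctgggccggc
Usp27x: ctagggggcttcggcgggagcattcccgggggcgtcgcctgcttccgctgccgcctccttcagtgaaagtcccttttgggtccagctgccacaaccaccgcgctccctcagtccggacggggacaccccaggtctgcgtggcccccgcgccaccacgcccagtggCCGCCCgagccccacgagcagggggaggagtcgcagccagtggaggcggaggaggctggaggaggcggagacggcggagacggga
Usp46: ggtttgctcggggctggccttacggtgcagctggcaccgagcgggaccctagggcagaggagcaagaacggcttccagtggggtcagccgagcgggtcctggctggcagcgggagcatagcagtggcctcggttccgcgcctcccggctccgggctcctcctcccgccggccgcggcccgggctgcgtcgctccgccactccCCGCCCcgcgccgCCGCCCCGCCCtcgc

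All 4 stretches are rich in G and C (62.8% of bases in Usp8, 77.1% in Usp13, 72.4% in Usp27x and 76.5% in Usp46). Each holds a GC box: 2 in Usp8, 1 in Usp13, 1 in Usp27x and 3 in Usp46. Usp13 also holds TGACG once, and no other match was found in the 4. The Usp27x stretch runs over an exon of the noncoding gene Gm14379 on the other strand. Usp14, Usp45 and Usp53 also held their call but are not shown. Usp14 lies on chromosome 18, which was left out. Genes without a single window, or with too few bases left before the first transcript, were left out as well. Whole RefSeq windows of 250 bases were at hand for 44 of 58 members: 5 higher, 9 lower and 26 not called, besides members that were not tested. A GC box stood in 40% of the higher, 66.7% of the lower and 69.2% of the members not called, against 32.7% of all 32851 promoter windows. CCAAT stood in 40%, 22.2% and 23.1% of them, against 33.8% of all windows, and TGACG in 20%, 22.2% and 23.1%, against 17.8%. TATAAA stood in 60% of the 5 higher members, 0 of the 9 lower and 3.85% of those not called, against 12.4% of all windows, and CACGTG in 0, 0 and 15.4%, against 6.02%. A match is a description of letters and not of a bound site, and the groups are too small to compare.

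The family's partner proteins and the neighbouring deubiquitinases were followed through 3 lists. Of 20 USP cofactors, 4 rose and 6 fell (50%, median log2 change -0.063, against 35% called and a median of 0.00096 over all tested genes). On the values as deposited 1 cofactor passed, as higher, and with the factors on per-read shares 1 passed as higher and 6 as lower. Stam2, the endosomal partner that brings USP8 to its cargo, was higher at 40.98 ± 10.1 CPM in Nat10 cKO and 20.8 ± 1.54 CPM in WT (SD, n = 3 each; log2 change 0.92, SE 0.152, limma adjusted p = 0.000627). G3bp1, the partner of USP10, was higher (log2 change 0.70, SE 0.131, limma adjusted p = 0.00133). Adrm1, listed as a ubiquitin receptor of the proteasome without a USP partner named here, was higher too (log2 change 0.59, SE 0.117, limma adjusted p = 0.00195). Atxn7l1, a relative of the SAGA subunit ATXN7, was lower (log2 change -0.79, SE 0.160, limma adjusted p = 0.00227). Named after their values were seen, Stam, the relative of Stam2, was lower (log2 change -0.48, SE 0.112, limma adjusted p = 0.00573), and Wdr48, the activator of USP1, USP12 and USP46, was higher (log2 change 0.52, SE 0.129, limma adjusted p = 0.00734). Usp46 was lower, and Usp1 was lower in limma but not called by edgeR or DESeq2. The other cofactors that passed, also named after their values were seen, were Faf1, Sart3, Atxn7 and Eny2, all lower (log2 change -0.53, -0.49, -0.47 and -0.32). Wdr20 and Dmwd did not pass (log2 change -0.16 and -0.049).

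Of 37 tested genes of other deubiquitinase families, 7 rose and 2 fell (24.3%, median -0.057). With the factors on per-read shares 2 passed, as lower, and on the values as deposited 0 passed in limma (1 higher and 0 lower at an unadjusted p under 0.05). Josd1, a Josephin-domain protease, was lower at 46.2 ± 5.35 CPM in Nat10 cKO and 70.6 ± 8.61 CPM in WT (SD, n = 3 each; log2 change -0.60, SE 0.116, limma adjusted p = 0.00169), and so was the OTU protease Zranb1 (log2 change -0.48, SE 0.136, limma adjusted p = 0.0143). Mysm1, which acts on histone H2A, and Cops5, the catalytic subunit of the COP9 signalosome, were higher (log2 change 0.42, SE 0.0925, limma adjusted p = 0.00359, and log2 change 0.33, SE 0.0888, limma adjusted p = 0.0110). The Cops5 call was lost without Nat10 cKO replicate 1 (limma adjusted p = 0.0581), and the Zranb1 call without Nat10 cKO replicate 2 (limma adjusted p = 0.0601). Of 4 tested genes for ubiquitin or ubiquitin-activating enzymes, only Uba6 passed (25%, against 35% of all tested genes). Ubb, a ubiquitin gene, had 1687 ± 51.5 CPM in Nat10 cKO and 1907 ± 71.8 CPM in WT (SD, n = 3 each; log2 change -0.18, SE 0.0754, limma adjusted p = 0.0852), with its sign turned on the values as deposited, and Rps27a, a gene for ubiquitin fused to a ribosomal protein, had a log2 change of 0.089. Ubb passed without WT replicate 2 (log2 change -0.19, limma adjusted p = 0.0373). Of the enzymes that activate ubiquitin, Uba6 was higher at 104 ± 2.72 CPM in Nat10 cKO and 78.3 ± 12.8 CPM in WT (SD, n = 3 each; log2 change 0.41, SE 0.114, limma adjusted p = 0.0134), a call lost without WT replicate 1 (limma adjusted p = 0.0641), and Uba1 had a log2 change of 0.013.

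How many members pass depends on the scaling of the libraries. The deposited columns carry 1 factor per library, and the samples held an ERCC spike-in meant for calibration; on those values the median gene moved by 0.24 on the log2 scale, and with the factors applied to per-read shares by -0.15, against 0.00096 with TMM. On the deposited values 3 members passed as higher (Usp17lb, Usp17lc and Usp17le), against 6.58% of all genes, and 0 as lower in limma, against 1.39% of all genes; 9 were higher and 1 lower at an unadjusted p under 0.05. With the factors on per-read shares 2 passed as higher (Usp17lb and Usp17le), against 5.6% of all genes, and 9 as lower (Usp13, Usp27x, Usp43, Usp44, Usp45, Usp46, Usp49, Usp50 and Usp53), against 16.5% of all genes. Each scaling differs by 1 factor per library, so subtracting its median gene brings back nearly the TMM change by construction. Usp13 had a log2 change of -0.75 on the deposited values (-0.99 relative to the median gene) and Usp8 of 0.98 (0.74). How the factors were derived is not known, so whether an oocyte held more or less of a USP mRNA in absolute amount cannot be told from these values.

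**Figure D5:**
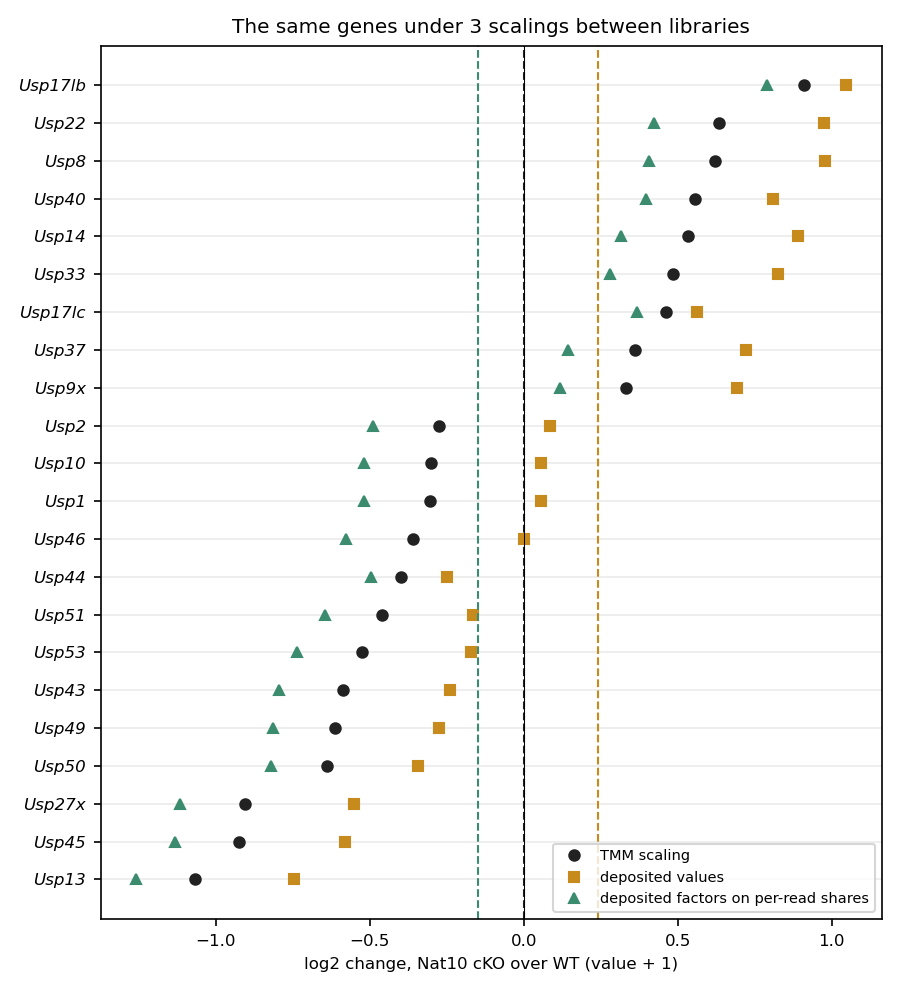
Log2 change (Nat10 cKO over WT) of the 22 called members under TMM scaling (circles), the deposited values (squares) and per-read shares multiplied by the deposited factors (triangles); dashed lines mark the median gene of each scaling. The 3 sets run nearly parallel, shifted by the medians of all genes.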

How the data were processed

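Polyadenylated RNA of 6 pools of 10 oocytes was read by Smart-seq2. The tools named in the submitters' processing notes are featureCounts, STAR 2.7.10a and Trim Galore 0.6.7, and the build is mm10; settings, annotation and strand use are not stated there. The deposited column of WT replicate 1 holds whole read counts per gene, and the other 5 deposited columns hold a scaled signal, whole reads multiplied by 1 factor per library (0.92, 0.908 and 0.932 for Nat10 cKO; 1.38 and 0.945 for WT replicates 2 and 3). Dividing by the factor gave whole reads, within 0.001, for 100% of values. Genes were kept by filterByExpr (minimum count 10), and log2(CPM + 1) with TMM factors was tested by limma 3.58.1 (trend, robust) with Benjamini-Hochberg adjustment over 18353 genes, two-sided. edgeR 4.0.16, DESeq2 1.42.0, other scalings, filters, pseudocounts, a replicate block and leaving out each library were alternatives. Scripts were tested on simulated data. Other software was matplotlib 3.10.9, pandas 2.3.3, numpy 2.4.6, Python 3.11.15 and R 4.3.3. No 2 libraries of a group agreed within sampling noise. The genotypes lay apart on the first principal component (74.3% of variance). Positions and exon lengths came from GENCODE M21 (53292 of 55291 symbols matched; all 58 members). The members, their role groups and the lists were chosen with earlier results of these data known. Some genes of the ubiquitin list are not reported here. Named were every member that passed (values in every pool for at least the 8 largest rises and 8 largest falls), the 8 highest per kb, those not passing at 50 CPM or more, untested members, and the 4 list genes of smallest p per list; other names are marked in the text or given for a relative, a place near the threshold or an overlap.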

Additional observations from a re-analysis of the deposited data

How the results depend on the processing

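Of the 9 higher and 13 lower members, 21 remained called with edgeR, 20 with DESeq2, 21 with median-of-ratios factors, 20 with library sizes only, 20 at a minimum count of 50, 22 at a pseudocount of 0.5, 20 at a pseudocount of 5 and 21 with the replicate block, in the same direction throughout. With no filter, more genes entered the adjustment and 6 higher and 7 lower members passed. The deposited values, in which differences in depth remain, gave 3 higher and 0 lower members (1207 and 255 of all genes). The factors on per-read shares gave 2 and 9 (1027 and 3028 of all genes). What each difference between libraries adds to these counts was not tested. The log2 ratio of the family's sum was -0.0063 under TMM, 0.0243 with library sizes only, 0.00120 with median-of-ratios factors, 0.345 on the deposited values and -0.246 with the factors on per-read shares. Leaving out 1 library at a time, with fewer samples in each fit, gave 3 to 12 higher and 5 to 12 lower members, 2107 to 3431 higher and 2201 to 3334 lower genes of all tested, and a log2 ratio of the sum between -0.0237 and 0.0137.

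Direction turned for these members and ubiquitin-related genes, of which only Usp1, Usp2, Usp10 and Usp46 had passed under TMM. On the deposited values the log2 changes were Usp1 0.056, Usp2 0.085, Usp4 0.24, Usp6nl 0.32, Usp7 0.26, Usp10 0.055, Usp11 0.30, Usp19 0.25, Usp25 0.00064, Usp28 0.19, Usp29 0.25, Usp30 0.20, Usp31 0.19, Usp32 0.12, Usp38 0.34, Usp46 0.0011, Usp48 0.19, Usp54 0.34, Ubb 0.18. With the factors on per-read shares they were Usp3 -0.10, Usp5 -0.072, Usp16 -0.022, Usp34 -0.089, Usp39 -0.066, Usp42 -0.042, Usp47 -0.11, Rps27a -0.13, Uba1 -0.20. With library sizes only they were Usp6nl 0.018, Usp38 0.012, Usp54 0.015, and with no filter Usp6nl 0.0078, Usp38 0.0012, Usp54 0.0043. Over the fits that each left out 1 library, the ranges that crossed 0 were Usp6nl -0.079 to 0.067, Usp11 -0.16 to 0.056, Usp19 -0.23 to 0.013, Usp25 -0.18 to 0.043, Usp38 -0.040 to 0.019, Usp54 -0.056 to 0.035, Uba1 -0.041 to 0.060. The replicate numbers of the labels name no shared animal or day: deviations of same-numbered pools correlated at 0.079, 0.075 and -0.12, so they were not treated as pairs, and with the number as a block 10 members were higher and 12 lower, with Usp2 lost (limma adjusted p = 0.0522) and Usp35 gained (limma adjusted p = 0.0161). Usp44, Usp25, Usp17lc and Usp17le rest on few reads in each library. Usp17lb had few in the WT pools (22, 20 and 19 reads) and in Nat10 cKO replicate 3 (37 reads).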

Other observations

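The median annotated exon length was 8345 bases for the 9 higher members, 4818 bases for the 13 lower members and 7364 bases for tested members that did not pass. The difference was not tested. Of 5 members on the X chromosome, Usp9x was higher, Usp27x and Usp51 were lower, and Usp11 and Usp26 did not pass.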
